A study of Mus musculus with 2 samples.

Results

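The expression of 40 genes of glucose use was examined in iBAT, interscapular brown adipose tissue, a fat depot of the upper back that produces heat. The genes encode glucose transporters, the enzymes of glycolysis and the pentose phosphate pathway, lactate dehydrogenases and monocarboxylate carriers, the kinases of pyruvate dehydrogenase and the enzymes of glycogen. They were matched by gene symbol, as a list drawn up with earlier results of these data known, and all 40 were found among the 27179 genes of both count tables. Of these, 4 encode isoforms that skeletal muscle uses (Pfkm, Pgam2, Eno3 and Pygm) and were judged apart from the other 36. The tissue came from 20-day-old untreated mice on the C57BL/6N (Bl6N) background, which were either wild-type or carried a deletion of Ucp1 on both alleles (Δ/Δ, here Ucp1-KO). Each genotype was represented by 1 library of poly-A RNA from 3 pooled animals, so that differences below are differences between 2 libraries, with no replicate, no standard deviation and no p-value.

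Glucose enters adipocytes through the transporters GLUT1 (Slc2a1) and GLUT4 (Slc2a4), of which GLUT4 moves to the cell surface under insulin. Hexokinase traps it as glucose 6-phosphate, from which it can pass down glycolysis to pyruvate, enter the pentose phosphate pathway that yields NADPH and ribose, or be stored as glycogen. Pyruvate becomes lactate or, through pyruvate dehydrogenase, acetyl-CoA for oxidation and fatty acid synthesis. Brown fat is known for high glucose uptake when heat production is stimulated, and UCP1 is the mitochondrial protein that lets it release energy as heat.

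The libraries held 52950913 counts (wild-type) and 53216727 counts (Ucp1-KO), and the 15212 genes whose normalised count averaged 10 or more over both were examined. Ucp1 itself had 366473 counts (wild-type) and 37853 counts (Ucp1-KO), so that the library labelled Ucp1-KO held 12.7% of the normalised wild-type level and the transcript was not absent from it. Which part of the gene is deleted is not given in the sources used here, and the lower level therefore checks the label only in part. All 15 brown adipocyte markers were detected in both libraries. Their median log2 ratio was 0.25, with 11 above 0 and 4 below, from -2.98 (Ucp1 itself) to 2.52 (Elovl3). Mitochondrial ribosomal RNA took a share of 1.01% (wild-type) and 6.01% (Ucp1-KO). The design describes male animals, but the wild-type library had 32380 counts of Xist and 0 counts over 4 Y-linked genes, while the Ucp1-KO library had 16478 counts of Xist and 5305 over the same Y-linked genes. The labels and these transcripts therefore do not match. The sex of the pooled animals seems to differ between the libraries, so sex and genotype cannot be told apart for any gene. Values of X-linked genes are named as such below.

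Glucose metabolism transcripts were on balance slightly lower in the Ucp1-KO library, and few of them differed by a large factor. Differences are given as the log2 ratio of normalised counts, Ucp1-KO over wild-type, with a 95% interval in parentheses that covers counting error only, and pairs of values give the wild-type library before Ucp1-KO. Over the 36 genes outside the muscle isoforms the median log2 ratio was -0.29, beside -0.0016 over all genes examined. The ratio was below 0 for 26 of them and above 0 for 10, a share of 72.2% below 0, against 50.1% of all genes. Scaled to total counts, which moved the median of all genes to -0.31, the split was 30 below 0 and 6 above, or 83.3% below 0 against 72.8% of all genes. Together the 36 genes took 2.74% of all wild-type counts and 1.84% of all Ucp1-KO counts. These shares are of total counts, and the summed normalised counts had a smaller log2 ratio of -0.27 (-0.28 to -0.27). Whether such a shift comes from fewer cells of a type or from less RNA per cell cannot be told apart in a whole tissue.

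By a size rule of 2-fold, 1 of the 36 genes was higher in Ucp1-KO (Aldoc) and 2 were lower (Pgd and Pdk3), where the background over all 15212 genes was 7.42% higher and 9.55% lower by this rule. These counts are no more than the background gives. With scaling to total counts 6 were lower, adding Ldha, Slc16a3, Tkt and Pygl, where 2320 of 15243 genes were lower by the same rule. At 1.5-fold, 4 were higher (Aldoc, Slc16a1, Pdk4 and Gys2) beside a background of 15.4%, and 8 were lower (Slc2a1, Ldha, Slc16a3, Pdk3, Pgd, Tkt, Taldo1 and Pygl) beside a background of 17.9%. Most of the 36 genes are abundant, and abundant genes passed the size rules less often. Of the 6395 genes that averaged 1000 normalised counts or more, 2.63% passed 2-fold upwards and 2.86% downwards, and 9.95% and 7.91% passed 1.5-fold. Among the 31 of the 36 genes in that range, 0 passed 2-fold upwards and 1 downwards. In the same range 3 passed 1.5-fold upwards and 5 downwards, and their median log2 ratio was -0.27 against 0.06 for all abundant genes. For 24 of the 36 genes the counting interval lay below 0, for 8 it lay above 0 and for 4 (Pfkfb4, Tpi1, Pgk1 and G6pdx) it spanned 0. Among all examined genes with a symbol, the interval lay below 0 for 4609, above 0 for 4731 and spanned 0 for 5634. Intervals are narrower for abundant genes, so these numbers depend on level as well as on the size of the difference.

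**Figure D1:**
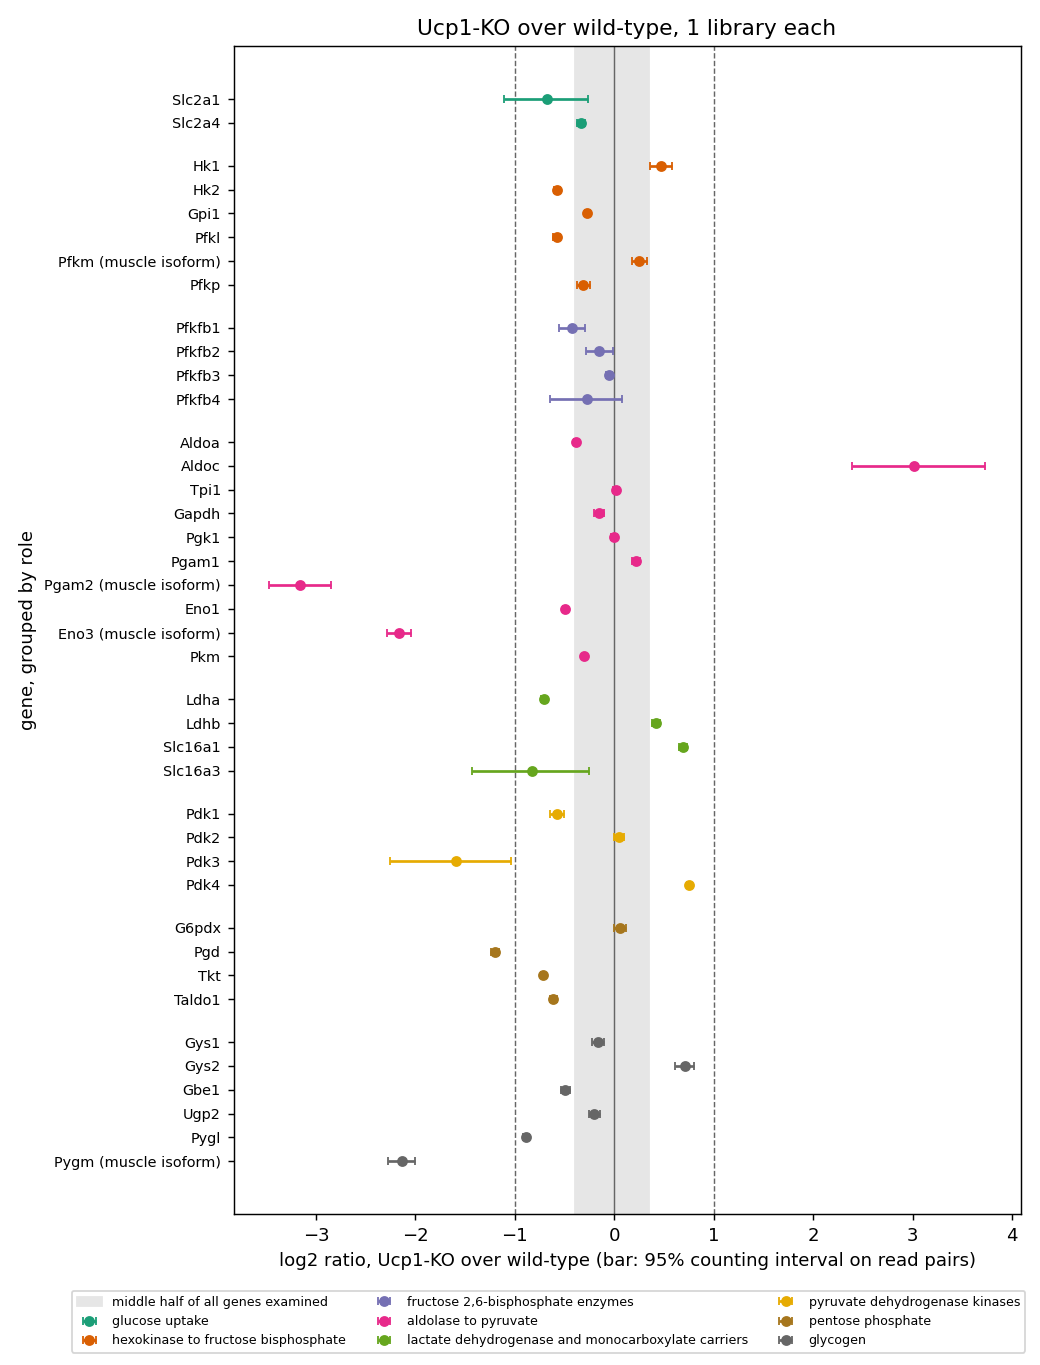
The plot shows the log2 ratio of each gene, Ucp1-KO over wild-type, on the horizontal axis, with 95% counting intervals as bars, genes grouped by role and coloured as in the key. The grey band holds the middle quartiles of all genes examined and dashed lines mark 2-fold, which among the 40 genes only Aldoc passes upwards, and Pgd, Pdk3, Pgam2, Eno3 and Pygm pass downwards.

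Levels between genes were compared as normalised counts per kb of canonical transcript. Aldoa was the most abundant of the 40 transcripts in both libraries, at 143950 (wild-type) and 110080 (Ucp1-KO) per kb. Eno1, Ldha, Tkt and Pkm followed in the wild-type library, and Eno1, Pdk4, Pkm and Ldha in the Ucp1-KO library. Pdk4, which restrains pyruvate oxidation, thus stood at rank 7 of 40 (wild-type) and rank 3 (Ucp1-KO). The lowest levels in wild-type were those of Aldoc (14.9 per kb), Slc16a3 (31.1 per kb) and Slc2a1 (57.8 per kb).

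**Figure D2:**
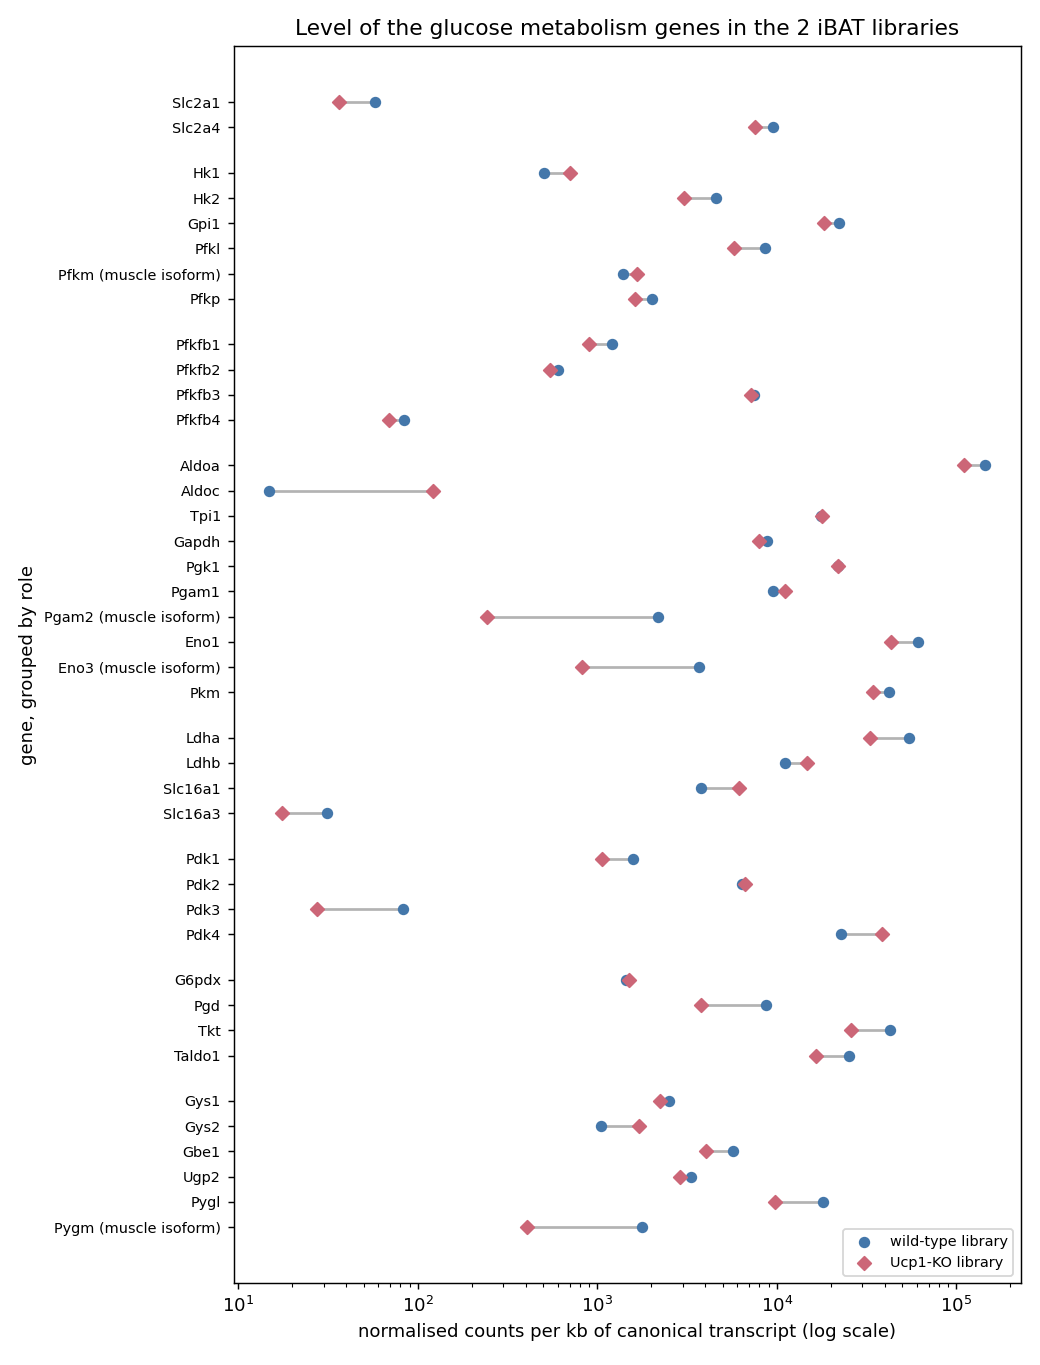
The plot gives the level of each of the 40 genes in the wild-type library (blue circles) and the Ucp1-KO library (red diamonds) as normalised counts per kb on a log axis, genes grouped by role. Levels span from 14.9 per kb (Aldoc in wild-type) to 143950 per kb (Aldoa in wild-type), and the longest connecting lines belong to Aldoc, Pgam2, Eno3 and Pygm.

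Both glucose transporters were lower in the Ucp1-KO library. Slc2a4, encoding the insulin-responsive transporter GLUT4, had 24882 (wild-type) and 19716 (Ucp1-KO) normalised counts, which gives a log2 ratio of -0.34 (95% counting interval -0.37 to -0.30). Slc2a1, encoding the basal transporter GLUT1, had 257 and 161 normalised counts, a log2 ratio of -0.67 (-1.11 to -0.26). GLUT4 was the main transcript of the pair in both libraries, with per kb levels 165 times those of Slc2a1 in wild-type and 209 times in Ucp1-KO. The change of that balance, 0.34 on the log2 scale, had a counting interval that spanned 0 (-0.08 to 0.78).

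The main hexokinases Hk1 and Hk2 differed in opposite directions. Hk2, the insulin-regulated hexokinase of muscle and fat, had 35514 (wild-type) and 23842 (Ucp1-KO) normalised counts, which gives a log2 ratio of -0.57 (-0.61 to -0.54). Hk1, the hexokinase found in most tissues, had 2171 and 3008, a log2 ratio of 0.47 (0.36 to 0.58). Hk2 was the main form in both libraries, and its share of the pair per kb was 90.0% in wild-type and 81.3% in Ucp1-KO. The balance of Hk2 to Hk1 was thus 2.06-fold lower in Ucp1-KO (log2 -1.05, -1.16 to -0.93).

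Of the next steps, glucose-6-phosphate isomerase (Gpi1) had 64060 (wild-type) and 53058 (Ucp1-KO) normalised counts, which gives a log2 ratio of -0.27 (-0.30 to -0.25). Pfkl, the main phosphofructokinase subunit of this tissue by transcript level, had 35187 and 23543, a log2 ratio of -0.58 (-0.61 to -0.55). Pfkp, the platelet-type subunit, had 8670 and 6995, a log2 ratio of -0.31 (-0.38 to -0.25). Phosphofructokinase commits sugar to glycolysis, and its transcripts were made up of Pfkl (71.6% per kb), Pfkp (16.8%) and the muscle-type Pfkm (11.6%) in wild-type. In Ucp1-KO these shares were 63.6%, 18.0% and 18.4%.

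The 4 bifunctional enzymes that make and remove fructose 2,6-bisphosphate, the activator of phosphofructokinase, had log2 ratios below 0, from -0.42 to -0.05. Pfkfb3, which favours synthesis of the activator, held 79.7% of the 4 transcripts per kb in wild-type and 82.6% in Ucp1-KO. Its level was nearly equal, with 42158 and 40690 normalised counts (log2 ratio -0.05, -0.08 to -0.02). The X-linked Pfkfb1, best known from liver and muscle, had 2267 and 1693 normalised counts (-0.42, -0.55 to -0.29). Pfkfb2 had 1853 and 1669 (-0.15, -0.29 to -0.01) and Pfkfb4 had 291 and 241 (-0.27, -0.65 to 0.07), so that of the less abundant forms Pfkfb1 was the one with the lowest ratio.

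From aldolase to pyruvate, the median log2 ratio was -0.08 for the 8 genes outside the muscle isoforms, and the steps differed from each other. Aldoa, the aldolase of most tissues, had 217508 (wild-type) and 166331 (Ucp1-KO) normalised counts, which gives a log2 ratio of -0.39 (-0.40 to -0.37). Eno1, the ubiquitous enolase, had 139653 and 98775, a log2 ratio of -0.50 (-0.52 to -0.48). Pkm, which encodes pyruvate kinase M, had 103625 and 84175, a log2 ratio of -0.30 (-0.32 to -0.28). These 3 abundant transcripts were lower in Ucp1-KO by more than counting error. The middle of the pathway was close to equal. Tpi1 (triosephosphate isomerase) had 28460 and 28792 normalised counts, and the X-linked Pgk1 (phosphoglycerate kinase) had 40033 and 39899, which is 99.7% of the wild-type level. Pgam1, the non-muscle phosphoglycerate mutase, was the abundant glycolytic gene with the higher level in Ucp1-KO, with 17196 and 20020 normalised counts and a log2 ratio of 0.22 (0.18 to 0.26), which turned to -0.09 with scaling to total counts. Gapdh had 12509 and 11259 normalised counts (-0.15, -0.20 to -0.10).

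Gapdh stood at 8809 (wild-type) and 7929 (Ucp1-KO) per kb, rank 15 and rank 14 of the 40 genes. This was above Hk2 (4555 and 3058) and Pfkl (8580 and 5741) but below several enzymes of the same pathway. Per kb, Aldoa stood 16.3 times and Tpi1 2.01 times above it in wild-type, and 13.9 and 2.26 times in Ucp1-KO. An alignment of the genome found 85 other places that resemble the Gapdh transcript at 95% identity or more over at least 50% of its length, more than for any other of the 40 genes. Gapdh also overlaps Iffo1 on the opposite strand by 2130 bases of exons, as Pfkfb2 does Yod1 (1839 bases), Pfkp Pitrm1 (1831 bases) and Pdk2 Samd14 (1511 bases). Similar copies were found for 9 other members, namely 3 each for Pgam1 and Eno1, 2 for Pgk1, and 1 each for Gpi1, Tpi1, Pkm, Ldha, Ldhb and Taldo1, and their levels are uncertain to the extent that reads were shared or dropped. How reads that match several places were counted is not given in the sources used here.

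Aldoc, the aldolase best known from brain, was the gene with the highest ratio among the 40. It is located at chr11:78213619-78218889 of GRCm39 on the plus strand, in 9 exons. As deposited it had 46 counts in wild-type (95% interval on read pairs 29.2 to 69.0) and 304 counts (258 to 356) for Ucp1-KO, which is a log2 ratio of 3.01 (2.39 to 3.72). In Ucp1-KO its level was 805% of that in wild-type. It stayed a minor transcript beside Aldoa, with 0.0103% of the pair per kb in wild-type and 0.110% in Ucp1-KO.

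Next to pyruvate, the balance of the lactate dehydrogenases differed between the libraries. Ldha, the subunit that favours lactate formation, had 86062 (wild-type) and 52608 (Ucp1-KO) normalised counts, which gives a log2 ratio of -0.71 (-0.73 to -0.69). Ldhb, the subunit typical of heart and other oxidative tissue, had 16900 and 22611, a log2 ratio of 0.42 (0.38 to 0.46). Ldhb made up 16.9% of both subunits per kb in wild-type and 30.9% in Ucp1-KO, so that its ratio to Ldha was 2.19-fold higher in Ucp1-KO (log2 1.13, 1.08 to 1.18). Of the carriers that move lactate and pyruvate across the cell membrane, Slc16a1 (MCT1) had 17472 and 28250 normalised counts, a log2 ratio of 0.69 (0.66 to 0.73). Slc16a3 (MCT4), the carrier known for lactate export from glycolytic cells, was near the bottom of the range with 146 and 82.1 normalised counts, a log2 ratio of -0.83 (-1.43 to -0.25). Its gene overlaps Csnk1d on the opposite strand by 832 bases of exons, and Csnk1d had 5222 and 5755 counts, beside 162 and 74 counts as deposited for Slc16a3. Whether the counting used strand is not given in the sources used here.

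The promoter of Ldha is shown because Ldha had the lowest ratio among the abundant members from hexokinase to lactate, muscle isoforms aside, and carries the letters CACGTG, a motif that several regulators of glycolysis recognise, at 2 places. The window runs from 250 bases before to 50 after the canonical start, chr7:46495013-46495312 of GRCm39 on the plus strand. Capitals mark every ACGTG on either strand, and likewise CCAAT and GGGCGG, with overlapping matches merged.
Ldha: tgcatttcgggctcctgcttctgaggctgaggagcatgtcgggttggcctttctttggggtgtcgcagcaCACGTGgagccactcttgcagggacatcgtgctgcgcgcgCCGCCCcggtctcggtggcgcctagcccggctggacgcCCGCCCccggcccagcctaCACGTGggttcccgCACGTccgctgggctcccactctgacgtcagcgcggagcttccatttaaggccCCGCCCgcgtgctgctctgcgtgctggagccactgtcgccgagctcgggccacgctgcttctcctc

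The pyruvate dehydrogenase kinases switch off pyruvate dehydrogenase and thereby hold back the oxidation of pyruvate. Pdk4, the kinase induced by fasting and fatty acids, had 85792 (wild-type) and 144191 (Ucp1-KO) normalised counts, 168% of the wild-type level (log2 ratio 0.75, 0.73 to 0.77). Pdk2, the widely expressed kinase, was close to equal with 14845 and 15346 (0.05, 0.00 to 0.09). Pdk1, a target of the hypoxia response, had 8368 and 5596 (-0.58, -0.65 to -0.51). Pdk3, an X-linked gene and the least abundant of the 4 kinases, had 227 (wild-type) and 61 (Ucp1-KO) counts as deposited, and at a log2 ratio of -1.59 (-2.26 to -1.04) reached 33.2% of the wild-type level. Pdk4 held 73.8% of the 4 kinases per kb in wild-type and 83.2% in Ucp1-KO, and the summed level of the kinases was higher in Ucp1-KO (log2 ratio 0.60, 0.58 to 0.61). The sum and the median (-0.27) of the kinases differ in sign, since the sum is mostly Pdk4.

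The Pdk4 promoter is shown because Pdk4 alone, of the 10 most abundant members in wild-type per kb, had a counting interval above 0. It lies at chr6:5496281-5496580 of GRCm39 on the minus strand and is written in the direction of the gene, with the same letters in capitals.
Pdk4: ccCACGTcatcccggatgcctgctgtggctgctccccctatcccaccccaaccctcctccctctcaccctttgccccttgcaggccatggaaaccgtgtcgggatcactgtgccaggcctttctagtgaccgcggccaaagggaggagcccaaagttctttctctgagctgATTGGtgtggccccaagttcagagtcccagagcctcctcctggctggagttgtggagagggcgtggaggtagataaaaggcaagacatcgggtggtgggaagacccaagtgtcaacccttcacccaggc

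The pentose phosphate genes had the lowest median log2 ratio of the groups outside the muscle isoforms, -0.67, and the log2 ratio of their summed counts was -0.72. Pgd, phosphogluconate dehydrogenase of the oxidative branch that makes NADPH, had 29729 (wild-type) and 12956 (Ucp1-KO) normalised counts. This is 43.6% of the wild-type level and a log2 ratio of -1.20 (-1.24 to -1.16). The gene is located at chr4:149233246-149251228 of GRCm39 on the minus strand, in 13 exons. Tkt, transketolase of the non-oxidative branch, had 137717 and 83703 normalised counts, 60.8% of the wild-type level (-0.72, -0.74 to -0.70). Taldo1, transaldolase of the same branch, had 31966 and 20911, 65.4% of the wild-type level (-0.61, -0.65 to -0.58). The X-linked G6pdx, glucose-6-phosphate dehydrogenase, whose enzyme opens the pathway and sets its rate, did not share this pattern and had 8486 and 8836 normalised counts, a log2 ratio of 0.06 with an interval that spanned 0. The 3 members downstream of G6pdx were thus at least 1.5-fold lower, while the gene of the entry step was not. This size was passed downwards by 17.9% of all genes examined and by 7.91% of the abundant ones. Other downstream genes did not reach it, namely Rpia (-0.12, -0.29 to 0.05) and Rpe (-0.32, -0.42 to -0.23), both chosen after their values were seen. Pgls, given below, was higher in Ucp1-KO.

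The promoters of these 3 lower genes are shown since they belong to 1 pathway and differed in the same direction. They lie at chr4:149251129-149251428 (Pgd, minus strand), chr14:30270831-30271130 (Tkt, plus strand) and chr7:140971826-140972125 (Taldo1, plus strand) of GRCm39, are written in the direction of the gene and carry the same letters in capitals.
Pgd: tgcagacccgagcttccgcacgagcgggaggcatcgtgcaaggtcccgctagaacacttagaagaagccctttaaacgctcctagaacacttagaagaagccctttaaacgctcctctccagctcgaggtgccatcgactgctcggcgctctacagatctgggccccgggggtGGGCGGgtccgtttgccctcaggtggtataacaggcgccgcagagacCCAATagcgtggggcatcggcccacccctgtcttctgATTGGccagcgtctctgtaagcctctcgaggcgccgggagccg
Tkt: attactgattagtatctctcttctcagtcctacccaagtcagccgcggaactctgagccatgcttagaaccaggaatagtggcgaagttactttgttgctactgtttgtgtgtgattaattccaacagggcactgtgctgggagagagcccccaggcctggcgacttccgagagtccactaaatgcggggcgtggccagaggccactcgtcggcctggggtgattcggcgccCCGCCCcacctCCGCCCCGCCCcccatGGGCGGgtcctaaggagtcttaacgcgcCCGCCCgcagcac
Taldo1: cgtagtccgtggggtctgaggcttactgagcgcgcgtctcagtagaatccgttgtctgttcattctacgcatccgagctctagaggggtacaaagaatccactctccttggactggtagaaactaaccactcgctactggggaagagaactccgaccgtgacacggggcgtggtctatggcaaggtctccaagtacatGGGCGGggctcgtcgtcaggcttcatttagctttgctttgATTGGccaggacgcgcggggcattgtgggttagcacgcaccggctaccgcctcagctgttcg

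The Tkt window held 5 matches to GGGCGG and none to ACGTG or CCAAT. Pgd held 1 match to GGGCGG and 2 to CCAAT, and Taldo1 held 1 of each. Over all 40 members, ACGTG was found on either strand in 16 windows (40%), beside 20.7% of 21729 promoter windows of the same length, and CACGTG, which contains it, in 5 (12.5%) beside 7.81%. GGGCGG was found in 20 (50%) beside 42.5%, CCAAT in 17 (42.5%) beside 39.9%, TGACG in 8 (20%) beside 22.6% and TGATGNAAT in 0 beside 0.897%. A pair of CACGTG with a spacer of 5 bases, the arrangement that ChREBP recognises in its strictest form, was found in no window of either set. Of the 36 genes outside the muscle isoforms, the 20 with GGGCGG had a median log2 ratio of -0.36 (18 below 0) and the 16 without it a median of -0.07 (8 below 0). For ACGTG the 13 genes that hold it had a median of -0.16 and the 23 that lack it -0.30. For CCAAT the 15 that hold it had a median of -0.34 and the 21 that lack it -0.20. The same splits were not made over all genes, so a link between letters and ratio was not tested. For Pfkl, Pfkfb3, Slc16a3 and G6pdx the window shared no long stretch with the promoter of a second annotation, RefSeq. Their place in these groups therefore depends on the start chosen. A match describes the letters in the window and is not evidence of a bound factor.

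Among the 6 glycogen members, the largest difference outside the muscle isoform was in breakdown. Pygl, the liver-type glycogen phosphorylase that releases glucose from glycogen, had 51688 (wild-type) and 27998 (Ucp1-KO) normalised counts. At 54.2% of the wild-type level, its log2 ratio was -0.88 (-0.91 to -0.85). Gbe1, the branching enzyme, had 17705 and 12589 (-0.49, -0.54 to -0.44), and Ugp2, which makes the UDP-glucose used for synthesis, had 12524 and 10897 (-0.20, -0.25 to -0.15). The glycogen synthases differed from each other. Gys1, the synthase of muscle and most other tissues, had 9295 and 8293 normalised counts (-0.16, -0.23 to -0.10), while Gys2, known as the liver synthase, had 2797 and 4569 (0.71, 0.61 to 0.80). Gys2 made up 29.6% of both synthases per kb in wild-type and 43.4% in Ucp1-KO.

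The Pygl promoter, chr12:70274452-70274751 of GRCm39 on the minus strand, is shown because Pygl was the glycogen member with the lowest ratio outside the muscle isoform. It held 4 matches to GGGCGG and 1 to ACGTG, in capitals.
Pygl: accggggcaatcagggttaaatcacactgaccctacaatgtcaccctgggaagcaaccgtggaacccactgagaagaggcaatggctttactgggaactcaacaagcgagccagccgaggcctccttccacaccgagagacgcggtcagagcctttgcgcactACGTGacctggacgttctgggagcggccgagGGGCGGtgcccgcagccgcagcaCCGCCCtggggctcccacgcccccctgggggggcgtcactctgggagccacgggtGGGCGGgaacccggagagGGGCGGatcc

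**Figure D3:**
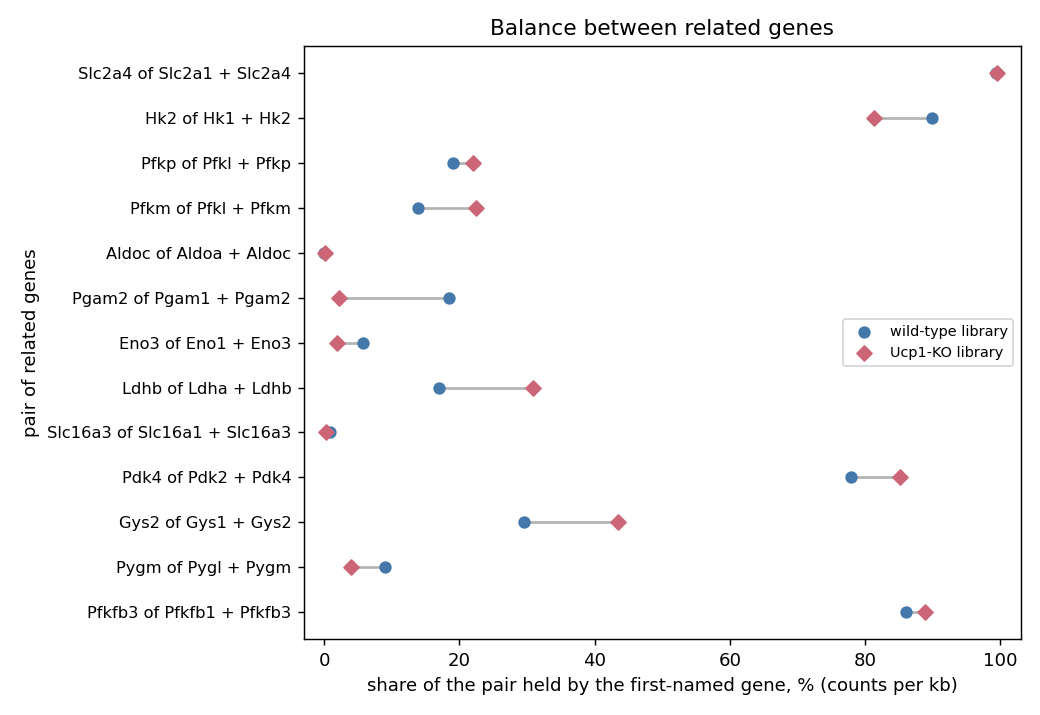
Each row is a pair of related genes, and the horizontal axis gives the share of the pair, in percent of normalised counts per kb, that the first-named gene held in the wild-type library (blue circle) and the Ucp1-KO library (red diamond). The Ldhb share goes from 16.9% to 30.9% and the Gys2 share from 29.6% to 43.4%, while the Hk2 share goes from 90.0% to 81.3% and that of Pgam2 from 18.5% to 2.14%.

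The muscle isoforms were judged apart, and 3 of the 4 were far lower in Ucp1-KO. Pgam2, the muscle phosphoglycerate mutase, had 1893 (wild-type) and 212 (Ucp1-KO) normalised counts, 11.2% of the wild-type level (log2 ratio -3.16, -3.47 to -2.85). Its gene overlaps Dbnl on the opposite strand by 298 bases of exons. Dbnl had 2130 and 1602 counts as deposited, beside 2100 and 191 for Pgam2. Eno3, the muscle enolase, had 6411 and 1429, 22.3% of the wild-type level (-2.17, -2.29 to -2.04). Pygm, the muscle glycogen phosphorylase, had 5210 and 1186, 22.8% of the wild-type level (-2.13, -2.27 to -2.00). These 3 genes thus lay outside the range of all 36 other genes on the lower side, with Pdk3 the closest to them. Pfkm, the muscle phosphofructokinase, which other tissues express as well, did not go with them and had 5557 and 6619 normalised counts (0.25, 0.18 to 0.33, and -0.05 with scaling to total counts).

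Markers of skeletal muscle moved in the same direction. All 23 were at least 2-fold lower in Ucp1-KO, with a median log2 ratio of -2.67 and a range from -3.92 to -1.35, and their summed share of all counts was 0.689% (wild-type) and 0.0842% (Ucp1-KO). None of them was at 0 in either library. Pvalb, a calcium buffer of fast fibres, had 13420 and 883 normalised counts. Casq1, the calcium store protein of fast muscle, had 8274 and 657, and Mylpf, a myosin light chain of fast muscle, had 20560 and 1656. Muscle transcripts were thus present in both libraries and at a higher level in the wild-type one. The part of muscle RNA in the lower values of the other glycolytic genes, some of which muscle expresses at high levels, was not tested.

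Markers of other cell types differed too. Of 10 endothelial markers 9 were lower in Ucp1-KO, with a median log2 ratio of -0.87 and a summed share of 0.239% and 0.118%. The 7 erythroid markers in the tables had a median of -0.52, and 6 of them were lower. The 10 macrophage markers had a median of 0.12, with 6 above 0 and 4 below, from -0.47 (Cd163) to 2.04 (Itgam). Their summed normalised counts were higher in Ucp1-KO (log2 ratio 0.34, 0.27 to 0.40), while their summed share of all counts was 0.0135% and 0.0138%. Each of these cell types uses glucose, and endothelial cells carry GLUT1. The marker values stand beside those of Slc2a1 and of the glycolytic genes, and the part of these cells in them was not tested. No marker of these 3 lists was at 0 in either library.

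**Figure D4:**
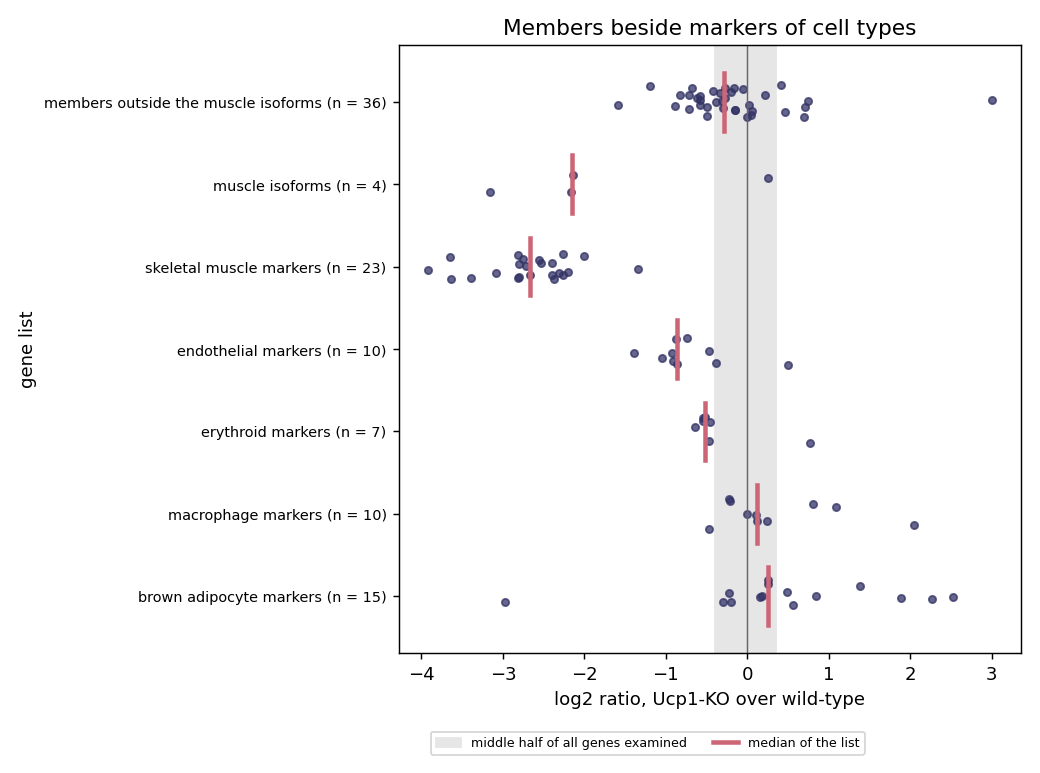
The log2 ratio of each gene (points, horizontal axis) is shown for the 36 members, the 4 muscle isoforms and 5 lists of cell type markers, with the median of each list as a red line and the middle quartiles of all genes examined as a grey band. The 23 skeletal muscle markers (median -2.67) lie where Pgam2, Eno3 and Pygm do, endothelial markers have a median of -0.87, and brown adipocyte markers have a median of 0.25 with Ucp1 far to the left.

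Of 94 further genes of glucose metabolism listed as neighbours of these pathways, 93 were in the tables and 84 were examined. Their median log2 ratio was -0.13, with 46 below 0 and 38 above. At least 2-fold higher were 5 and at least 2-fold lower 7, which is in the range of the background of 7.42% and 9.55%. Their median thus lay nearer to 0 than that of the 36 members, a difference that was not tested, and single genes at the branch points are given below.

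Among the other transporters and isoforms, with 12 examined and a median of -0.41, Slc2a5, the fructose transporter GLUT5, had 1800 (wild-type) and 153 (Ucp1-KO) normalised counts (log2 ratio -3.55, -3.93 to -3.20). Slc2a3, the high-affinity transporter GLUT3, had 332 and 95.4 (-1.79, -2.31 to -1.31). Slc16a7 (MCT2), another monocarboxylate carrier, had 571 and 327 (-0.80, -1.09 to -0.51). The transporters of this list did not all differ in 1 direction, since Slc2a8, an intracellular glucose transporter chosen here after its values were seen, had 548 and 739 normalised counts (0.43, 0.20 to 0.66), and the intervals of Slc2a10 and Slc2a12, chosen likewise, spanned 0. Bpgm, which makes the red cell regulator bisphosphoglycerate, had 6223 and 3972 (-0.65, -0.73 to -0.57).

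At pyruvate entry into mitochondria, with 11 examined and a median of -0.19, the carrier subunits Mpc1 and Mpc2 and the dehydrogenase subunit Pdhb were lower in Ucp1-KO. Mpc1 had 13468 and 8935 normalised counts (-0.59, -0.65 to -0.54), Mpc2 had 24859 and 17248 (-0.53, -0.57 to -0.49), and Pdhb had 89413 and 52536 (-0.77, -0.79 to -0.74). Pdp2, a phosphatase that reactivates the dehydrogenase and so opposes the kinases, had 1856 and 3394 (0.87, 0.76 to 0.99). Pdp2 and Pdk4, which act in opposite directions on the same enzyme, were thus both higher in Ucp1-KO.

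In the pentose phosphate list, with 7 examined and a median of -0.32, H6pd, which runs the oxidative steps inside the endoplasmic reticulum, had 6769 and 3408 normalised counts (-0.99, -1.08 to -0.90). Pgls, the lactonase between G6pdx and Pgd, was low in both libraries with 60.4 and 162 (1.42, 0.80 to 2.03). The X-linked Prps2, which activates ribose phosphate for nucleotide synthesis, had 333 and 224 (-0.57, -0.93 to -0.21), and the ribokinase Rbks had 194 and 135 (-0.52). The oxidative steps therefore did not all differ in 1 direction.

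In the glycogen list, with 24 examined and a median of -0.07, 3 genes were at least 2-fold lower and 2 at least 2-fold higher. These counts are near the background over all genes of 9.55% lower and 7.42% higher. Ppp1r3b, a glycogen-targeting subunit of protein phosphatase 1 known from liver, had 19489 and 9557 normalised counts (-1.03, -1.08 to -0.98). The other lower genes were Ppp1r3a, the targeting subunit of skeletal muscle, with 313 and 123 (-1.34, -1.80 to -0.89), and Phkg1, the muscle subunit of phosphorylase kinase, with 340 and 138 (-1.30, -1.74 to -0.88). Both of these are muscle forms and were lower as the muscle markers were. Stbd1, which tethers glycogen to membranes, had 434 and 1578 normalised counts (1.86, 1.65 to 2.08). Ppp1r3g, named after its values were seen, had 2 and 19 counts (3.23, 0.81 to 9.06).

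Among 6 gluconeogenesis genes (median 0.05), Pck2, the mitochondrial phosphoenolpyruvate carboxykinase, had 1677 and 5201 normalised counts (1.63, 1.52 to 1.74) and Slc37a4, the glucose 6-phosphate carrier of the endoplasmic reticulum, had 1373 and 564 (-1.28, -1.50 to -1.08). G6pc3, the widely expressed glucose-6-phosphatase, had 982 and 1443 (0.55, 0.39 to 0.72). Fbp2, the muscle fructose bisphosphatase, had 683 and 499 (-0.45, -0.70 to -0.21).

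Of 24 regulators of glucose use (median 0.09), Mlxipl, which encodes the glucose-sensing transcription factor ChREBP, had 22142 and 9365 normalised counts (-1.24, -1.29 to -1.19). Its partner Mlx had 2530 and 1537 (-0.72, -0.85 to -0.59). Both subunits of this factor were therefore lower in Ucp1-KO. Tbc1d4, which holds back GLUT4 until insulin acts, had 2793 and 5102 (0.87, 0.78 to 0.96), and Myc, a transcription factor that activates many glycolytic genes, had 220 and 780 (1.82, 1.53 to 2.14).

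**Figure D5:**
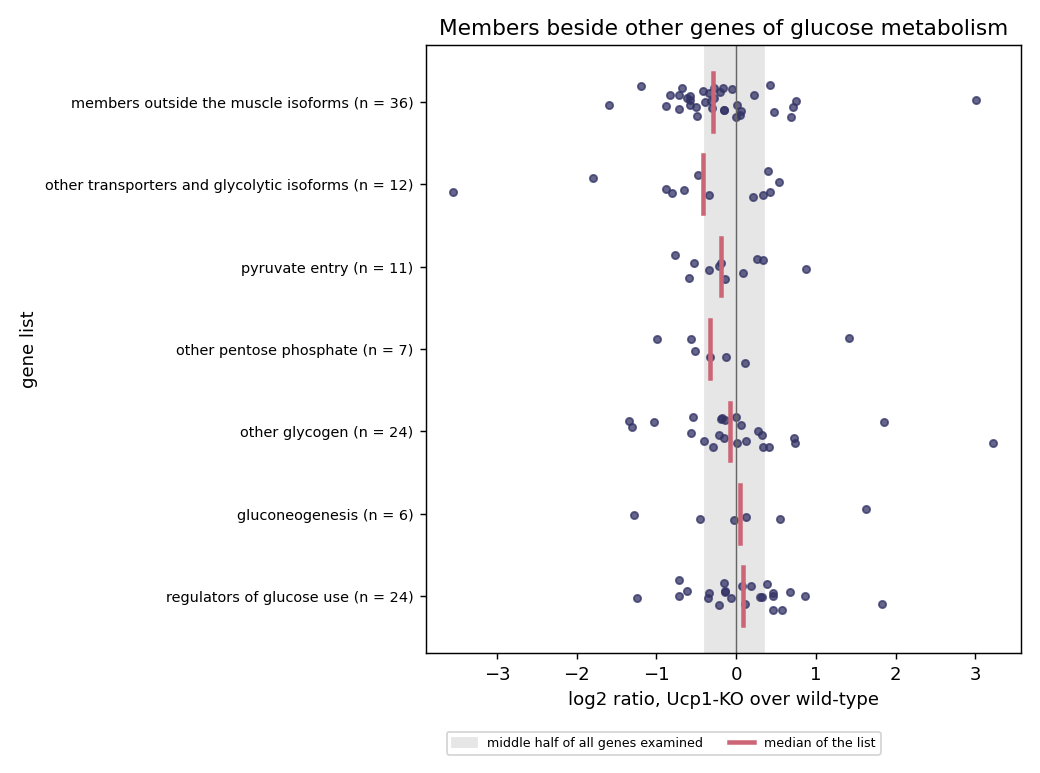
The log2 ratio of each gene (points, horizontal axis) is shown for the 36 members and for 6 lists of further glucose metabolism genes, with list medians as red lines and the middle quartiles of all genes examined as a grey band. List medians run from -0.41 (other transporters and isoforms) to 0.09 (regulators), and the highest point, Ppp1r3g, rests on few counts.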

How the data were processed

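RNA was measured in iBAT of 20-day-old mice, with 1 wild-type and 1 Ucp1-KO library from 3 pooled animals each. The authors deposited whole-number counts of reads per gene, made with featureCounts and not normalised. Library preparation was directional with poly-A enrichment per the labels, and the submitters' processing notes name Trim Galore, HISAT2 and mm39. Settings for strand, multiple matches and annotation are not given in the sources used here. Both tables listed the same gene identifiers in the same order and were joined by them. Genes without a symbol (1319) held 0.156% and 0.121% of counts and were kept.

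Scaling used the size factors of DESeq2 1.42.0 (median of ratios; R 4.3.3), which were 1.11 (wild-type) and 0.901 (Ucp1-KO). To both normalised counts 0.5 was added, and the log2 ratio is the log2 of Ucp1-KO over wild-type. Only genes averaging 10 or more normalised counts were examined. Even values made up 70.7% and 73.4% of counts from 1 to 10, so exact 95% intervals (Clopper-Pearson for ratios, Poisson for counts, conditional for pairs of genes; SciPy 1.17.1) were computed on read pairs, the counts divided by 2. They cover counting error only, and the 2 libraries allow no test. The method was tried on simulated counts with known ratios that held counting error only. That trial therefore cannot speak to differences between animals or libraries. Positions and canonical transcripts are those of GENCODE mouse release 39 (GRCm39), joined by symbol, promoters run from 250 bases before to 50 after the start, and similar copies were found with minimap2 2.31. The members, the gene lists and the rule for named genes were chosen with earlier results of these data known. All 40 members were named, with up to 4 genes per further list with the largest log2 ratio in size among genes averaging 100 or more normalised counts, and up to 3 markers per list. Some genes of the further lists are not reported here and were left out of their counts. Alternatives were edgeR 4.0.16 TMM factors, total counts with and without mitochondrial genes, other filters, pseudocounts and size rules, thinned counts and summed counts.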

Additional observations from a re-analysis of the deposited data

How the results depend on the processing

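With scaling to total counts the median log2 ratio of all genes examined moved to -0.31, and the median of the members outside the muscle isoforms moved to -0.59, that of the muscle isoforms to -2.46 and the number of members at least 2-fold lower from 2 to 6. Relative to all genes, the 36 members stood at -0.28 with total counts and at -0.29 with the scaling used. The split was then 30 below 0 and 6 above, or 83.3% below against 72.8% of all genes, and the log2 ratio changed sign for Pfkm (-0.05), Tpi1 (-0.29), Pgam1 (-0.09), Pdk2 (-0.26) and G6pdx (-0.25). The number of all genes at least 2-fold higher and lower was 1128 and 1453 with the scaling used, 732 and 2320 with total counts, 2187 and 2844 without a filter on low counts, and 617 and 811 at a minimum mean of 50. With a size rule of log2 1.5 the number of members lower was 1 (Pdk3). As a ratio of summed counts the muscle isoforms stood at -1.01, since Pfkm carries weight in the sum. On counts as deposited instead of read pairs, the intervals of Pfkfb4 and G6pdx no longer spanned 0. TMM factors, total counts without mitochondrial genes, size factors from abundant genes, a pseudocount of 5 and thinned counts moved no value of a member by more than its counting interval. No paired analysis was possible because there is a single library for each genotype, and for the same reason no library could be left out. Depth limits Slc2a1, Slc16a3, Aldoc, Pdk3 and Pfkfb4, which had the widest intervals.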
